A study of Homo sapiens with 4 samples.

Results

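The 8 genes described here encode the cyclin-dependent kinase inhibitors: CDKN1A, CDKN1B and CDKN1C of the CIP/KIP family, CDKN2A, CDKN2B, CDKN2C and CDKN2D of the INK4 family, and CDKN3. They were chosen by symbol and not picked on their values, although earlier results of these data were known. All 8 were found among the 60880 genes listed in the count table. RNA-Seq counts came from LNCaP95 cells (replicates 1 and 2) and LN95(KO) cells (replicates 3 and 4). LNCaP95 derives from the prostate cancer line LNCaP and proliferates in the absence of androgen. In LN95(KO), made from it, CRISPR was used to knock out UGT2B17, an enzyme that conjugates androgens to glucuronic acid. Both were cultured in RPMI1640 with charcoal-stripped serum, which is depleted of steroids, and neither was treated. How many knockout clones were used is not given, and the series text names LNCaP as the knockout background where the sample labels name LN95. Nothing states that the replicates were separate cultures, so p-values measure the spread between these libraries, which may be technical.

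Progress through the cell cycle is driven by kinases that are active only when bound to a cyclin. INK4 proteins bind CDK4 and CDK6 and keep D-type cyclins from activating them, whereas CIP/KIP proteins bind complexes of cyclins with kinases and block CDK2 in particular. At the same time, CIP/KIP proteins can help cyclin D to assemble with CDK4 and CDK6. CDKN3 is a phosphatase that removes the activating phosphate from CDK2 and CDK1, and its mRNA is known to rise in dividing cells. The levels of several of these proteins are set largely by degradation, which mRNA counts do not show.

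UGT2B17 had 2788 and 2748 counts in LNCaP95 and 21 and 20 counts in LN95(KO) (log2 fold change -7.04, SE 0.10). Each library held between 17330338 and 18813193 gene reads. All 9 markers of luminal prostate cells were detected, with summed levels of 3030 and 3036 CPM (counts divided by library size after scaling for composition) in LNCaP95 and 3826 and 3657 CPM in LN95(KO). Of 11 markers of fibroblasts, blood, endothelium and basal prostate cells, 10 were matched, 3 (DCN, CD3E and CDH5) were at 0 in every library and 7 stayed under 10 counts in every library. Their summed level was 30.1 and 29.3 CPM against 36.7 and 33.9 CPM, most of it COL1A1. The basal keratin KRT14 had 1 and 2 counts against 17 and 20. The part of these differences in the results below was not tested. In bulk RNA, fewer cells of a type and less RNA per cell cannot be told apart.

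3 of the 8 inhibitor genes rose past the threshold of the study (adjusted p under 0.05 and fold change over 2) and 0 fell. The 3 were CDKN2C, CDKN3 and CDKN2A. Over all 15626 genes tested with edgeR, 18.0% were called in either direction, 8.86% higher and 9.13% lower in LN95(KO). At an adjusted p under 0.05 with no fold criterion, 5 of the 8 passed, beside 59.8% of all genes. The 2 libraries of LNCaP95 did not overlap with the 2 of LN95(KO) for any of the 8 genes, which was also true of 79.8% of all genes tested. The median log2 fold change of the 8 was 0.60, against -0.01 for all genes. All 8 passed the filter on low counts.

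**Figure D1:**
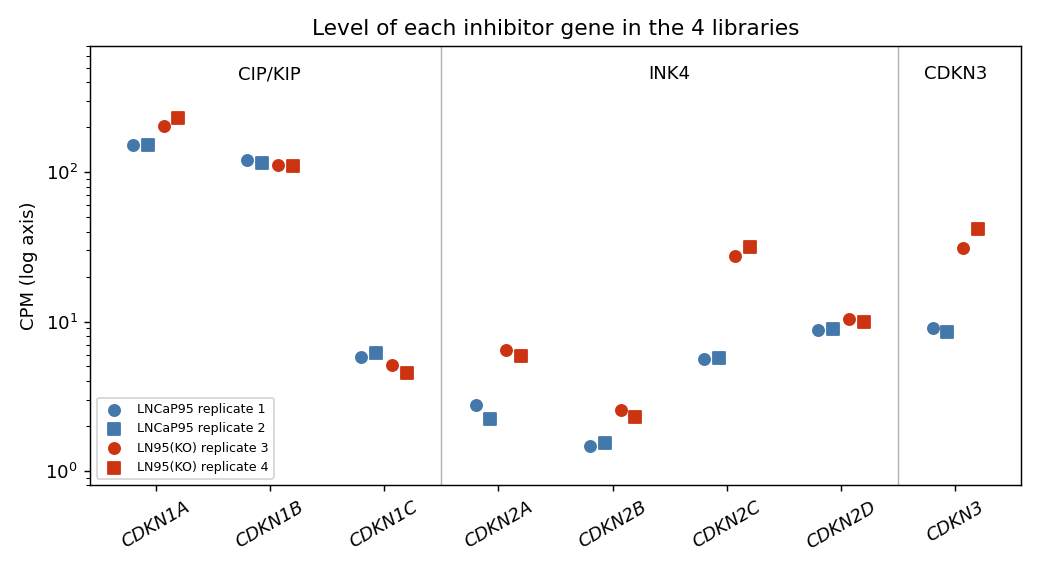
Level of each inhibitor gene in CPM on a log axis, with 1 point per library (blue, LNCaP95; red, LN95(KO); circles and squares, the replicates) and no error bars. CDKN2C and CDKN3 lay between 5.63 and 9.05 CPM in LNCaP95 and between 27.3 and 41.6 CPM in LN95(KO), while CDKN1B and CDKN2D lay at similar levels in the 4 libraries.

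Stretches of DNA before the transcription start are shown for the 2 genes with the greatest rise and for CDKN2D, the INK4 gene beside them that was not called. CDKN2C, CDKN2D and CDKN3 had been grouped as genes induced in the cycle. Of their windows, only that of CDKN3 held a cell cycle homology motif, which 16.4% of all promoter windows held. Windows of 250 bases before to 50 bases after the start came from RefSeq (GRCh38.p14). 10 windows were found for 7 of the 8 genes, with 2 for CDKN2A, 3 for CDKN2C and none for CDKN1C. Each matched GRCh37, the build of the counts, exactly 1 time. Below are the parts before the start that hold no annotated exon, 5′ to 3′ on the gene's strand, at chr14:54863475-54863566 (plus strand) for CDKN3, chr1:51435667-51435916 (plus strand, window 3) for CDKN2C and chr19:10679736-10679905 (minus strand) for CDKN2D. Capitals mark CCAAT boxes, the SP1 box GGGCGG and, in CDKN3 only, TTCAAA, the opposite strand of the cell cycle homology motif TTTGAA.
CDKN3: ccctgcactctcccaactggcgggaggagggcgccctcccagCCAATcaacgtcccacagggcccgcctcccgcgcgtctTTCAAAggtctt
CDKN2C: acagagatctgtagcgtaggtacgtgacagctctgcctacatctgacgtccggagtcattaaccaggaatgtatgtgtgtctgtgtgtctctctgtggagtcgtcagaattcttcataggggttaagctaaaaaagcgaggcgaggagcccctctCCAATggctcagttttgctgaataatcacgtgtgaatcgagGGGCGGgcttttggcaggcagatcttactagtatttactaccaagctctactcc
CDKN2D: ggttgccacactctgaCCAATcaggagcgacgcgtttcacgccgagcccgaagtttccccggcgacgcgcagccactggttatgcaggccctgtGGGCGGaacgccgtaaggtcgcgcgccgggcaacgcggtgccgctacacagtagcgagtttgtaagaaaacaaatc

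Cell cycle homology motifs (TTTGAA, or its variant TTCGAA, on both strands) are bound by a repressor complex that holds late cell cycle genes down in resting cells. Of the 10 windows, only that of CDKN3 held one, at position -170 from its RefSeq start. CCAAT boxes lay at -208 and, on the opposite strand, at -83. The annotated gene begins before this RefSeq start, and 158 bases of the part before the start lie in exon. Over 35116 promoter windows, 16.4% held such a motif. E2F motifs (TTTCCCGC, TTTGGCGC, TTTCGCGC, TTTGCCGC or TTTCGGGC, both strands) were in 0 of the 10 windows and in 3.76% of all windows. CCAAT was in the windows of CDKN1B, CDKN2C, CDKN2D and CDKN3 and in 34.6% of all windows. GGGCGG was found in 1 or more windows of every matched gene except CDKN3, and in 45.0% of all windows. Window 2 of CDKN2C, which lies in annotated exon and is not shown, held 6 such matches. Window 1, at the first annotated start of CDKN2C and also not shown, held none of the motifs. The window shown, window 3, lies inside the annotated gene at a later start. A match describes the letters of these windows and is no evidence of binding.

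Among the CIP/KIP genes, only CDKN1A passed the adjusted p threshold with TMM scaling. CDKN1A (p21), a broad inhibitor of cyclin-bound kinases that DNA damage is known to induce, had 2798 and 2763 counts in LNCaP95 and 3589 and 4193 counts in LN95(KO). Both LN95(KO) libraries were higher, at 203 and 230 CPM against 152 and 151 CPM. The log2 fold change was 0.52 (SE 0.06, adjusted p = 6.08e-07, edgeR), a fold of 1.43, which did not reach the fold criterion. CDKN1A (ENSG00000124762.13_3 in the count table, with positions and exons here and below from the later release of the annotation) is on chromosome 6, plus strand, at 36644237 to 36655114 of GRCh37, in 8 exon blocks, and 4.87% of its exon bases are shared with the noncoding gene DINOL.

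CDKN1B (p27), a brake on CDK2 in quiescent cells, was the most even of the abundant members. It had 2212 and 2118 counts in LNCaP95 and 1990 and 1994 counts in LN95(KO), at levels of 120 and 116 CPM against 112 and 109 CPM. The LN95(KO) libraries were slightly lower, and the log2 fold change was -0.09, with a 95% interval from -0.20 to 0.02 (adjusted p = 0.163, edgeR), so the interval held no change as large as 2-fold. The adjusted p ranged from 0.047, with upper quartile factors, to 0.628 over the alternatives (edgeR and DESeq2). CDKN1B is on chromosome 12, plus strand, at 12838432 to 12875303.

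CDKN1C (p57), an imprinted gene expressed mainly from the maternal copy, had 107 and 112 counts in LNCaP95 and, in LN95(KO), 91 and 82. Its level was 5.80 and 6.12 CPM against 5.14 and 4.49 CPM. The groups did not overlap, but the log2 fold change of -0.31 (95% interval -0.64 to 0.03, adjusted p = 0.108, edgeR) did not pass the test. CDKN1C is on chromosome 11, minus strand, at 2904443 to 2907005.

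The INK4 genes spread more widely. CDKN2C (p18), an inhibitor of CDK4 and CDK6 that is known to be transcribed late in G1 and S phase, had 104 and 104 counts in LNCaP95 and 484 and 572 counts in LN95(KO). Its level rose from 5.66 ± 0.03 to 29.3 ± 2.8 CPM (mean ± SD, n = 2 libraries each). The log2 fold change was 2.37 (SE 0.11, adjusted p = 8.48e-12, edgeR), a fold of 5.18, and lay at the 97.3 percentile of all genes tested. CDKN2C (ENSG00000123080.10_2) is on chromosome 1, plus strand, at 51426417 to 51440306, in 4 exon blocks. A noncoding gene of a later annotation, ENSG00000290102, covers 20.4% of its exon bases and is not in the count table, so reads of the 2 could not be told apart there.

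CDKN2D (p19), which binds the same kinases, differed far less between the groups. It had 163 and 162 counts in LNCaP95 and 183 and 181 counts in LN95(KO). The LN95(KO) libraries were slightly higher, at 10.3 and 9.92 CPM against 8.83 and 8.85 CPM. The log2 fold change was 0.20 (95% interval -0.06 to 0.46, adjusted p = 0.181, edgeR), and its interval did not meet that of CDKN2C, which ran from 2.13 to 2.61. CDKN2D therefore did not share the rise of CDKN2C and CDKN3, with which it had been grouped as induced in the cycle. It is on chromosome 19, minus strand, at 10677136 to 10679735.

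CDKN2A encodes p16, an inhibitor of CDK4 and CDK6, and, from another first exon, the unrelated protein ARF. Gene counts do not separate these transcripts. CDKN2A had 51 and 41 counts in LNCaP95 and 114 and 108 counts in LN95(KO), and both LN95(KO) libraries were over 2 times as high as either control. Its level rose from 2.50 ± 0.37 to 6.18 ± 0.37 CPM (n = 2 each), a log2 fold change of 1.30 (SE 0.18, 95% interval 0.91 to 1.69, adjusted p = 1.05e-05, edgeR). The interval reached below a 2-fold change, and CDKN2A was not called when the test was made against a 2-fold change (glmTreat), where 2 inhibitor genes, CDKN2C and CDKN3, remained. CDKN2A is on chromosome 9, minus strand, at 21967751 to 21995300, and shares 15.3% of its exon bases with the antisense gene CDKN2B-AS1, for which the LNCaP95 libraries held 0 and 1 counts and those of LN95(KO) 3 each.

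CDKN2B (p15), which TGF-beta is known to induce, was the lowest member. It had 27 and 28 counts in LNCaP95 and 45 and 42 counts in LN95(KO), at 1.46 and 1.53 CPM against 2.54 and 2.30 CPM. The log2 fold change was 0.69 (SE 0.25, adjusted p = 0.023, edgeR), below the fold criterion. With DESeq2 the adjusted p was 0.207, and it ranged from 0.015 to 0.207 over the alternatives, missing the threshold also without either LNCaP95 library and without LN95(KO) replicate 3. CDKN2B lies beside CDKN2A, positions 22002902 to 22009304 of chromosome 9. The pair shares identical sequence only over a short length. Of the windows of 50 bases in CDKN2A exons, 31 (0.755%) recur exactly in CDKN2B, and 0 of 100 bases do. Likeness with mismatched bases was not measured.

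CDKN3 had 167 and 155 counts in LNCaP95 and 549 and 759 counts in LN95(KO). Both LN95(KO) libraries were far above the controls, and they differed between themselves more than for any other inhibitor gene, with the level in replicate 4 being 1.34 times that in replicate 3. Its level rose from 8.76 ± 0.41 to 36.3 ± 7.5 CPM (n = 2 each). The log2 fold change was 2.05 (SE 0.14, adjusted p = 1.78e-08, edgeR), a fold of 4.15, and leaving out single libraries moved it between 1.83 and 2.25. The same ratio of replicate 4 to replicate 3 was 1.22 for CDK1, 1.18 for CCNA2 and 1.21 for CCNB1, and 1.15 for CDKN2C. CDKN3 (ENSG00000100526.19_4) is on chromosome 14, plus strand, at 54863567 to 54886936, in 11 exon blocks that no other gene shares.

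**Figure D2:**
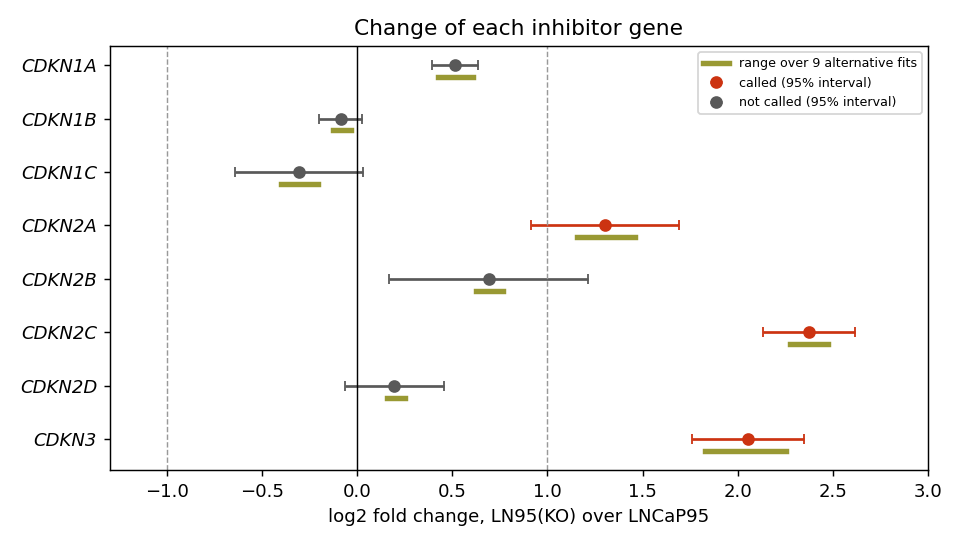
Log2 fold change of each inhibitor gene, LN95(KO) over LNCaP95, with its 95% interval (red, called; grey, not called) and, in olive, the range over 9 alternative fits; dashed lines mark a 2-fold change. CDKN2C (2.37) and CDKN3 (2.05) lie with their whole intervals beyond 2-fold, and those of CDKN1B, CDKN1C and CDKN2D include 0.

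As classes, the INK4 genes differed more between the groups than the CIP/KIP genes. Summed CIP/KIP levels were 277 and 273 CPM in LNCaP95 and 320 and 344 CPM in LN95(KO), a log2 ratio of 0.27. Summed INK4 levels were 18.7 and 18.3 CPM against 46.7 and 49.5 CPM, a log2 ratio of 1.38. The CIP/KIP sum is mostly CDKN1A and CDKN1B, and the INK4 sum in LN95(KO) is mostly CDKN2C. These sums are descriptions without a test, since 2 libraries against 2 cannot give a two-sided permutation p below 0.333.

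To compare levels between genes, CPM were divided by the merged exon length in kilobases. On this scale CDKN1A led in both groups, with 50.5 ± 0.2 in LNCaP95 and 72.2 ± 6.4 CPM per kilobase in LN95(KO). In LNCaP95 it was followed by CDKN1B (12.7), CDKN2D (5.87), CDKN3 (4.79), CDKN1C (2.40), CDKN2C (1.87), CDKN2A (0.644) and CDKN2B (0.374). In LN95(KO) the order was CDKN1A, CDKN3 (19.8), CDKN1B (12.0), CDKN2C (9.72), CDKN2D (6.73), CDKN1C (1.94), CDKN2A (1.59) and CDKN2B (0.605). CDKN3 thus moved above CDKN1B, and CDKN2C above CDKN2D and CDKN1C. Neighbours in either order did not overlap between their 2 libraries, but the order depends on the length used. With the length of the longest transcript, CDKN3 stood above CDKN2D and CDKN2A above CDKN2C in LNCaP95, and CDKN2A stood above CDKN1C in LN95(KO). The change of length mattered most for CDKN2A, where it raised the LN95(KO) level from 1.59 to 5.87 CPM per kilobase.

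Of the summed level per kilobase of all 8 genes, the CIP/KIP genes accounted for 82.7% and 83.0% in LNCaP95, against 70.0% and 68.4% in LN95(KO). The INK4 share was 11.1% in both LNCaP95 libraries, against 15.6% and 14.4% in LN95(KO). The CDKN3 share was 6.21% and 5.88% against 14.5% and 17.2%. CDKN1A alone kept the greater part in every library, from 57.8% to 64.0%. The shares used the merged exon length and were not computed with the longest transcript.

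**Figure D3:**
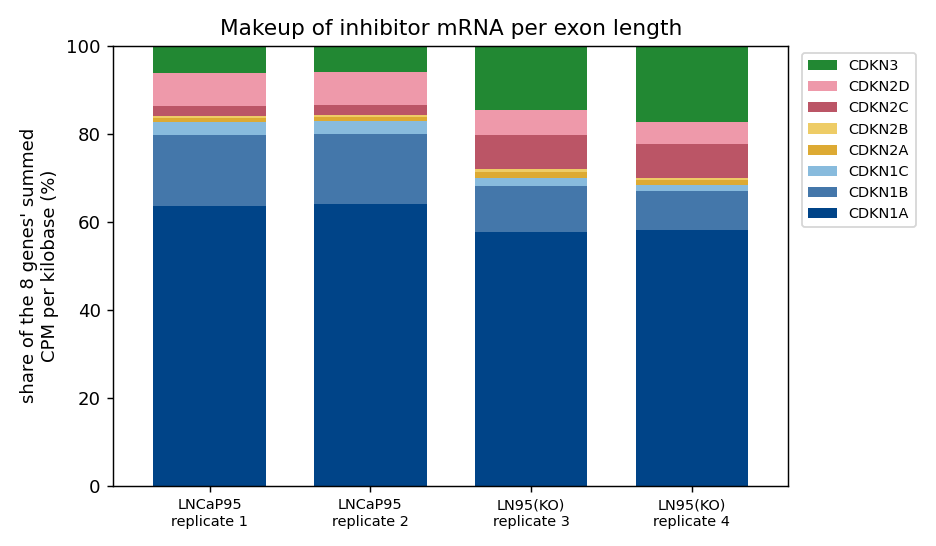
Share of each inhibitor gene in the summed CPM per kilobase of the 8 genes, in percent, as 1 stacked bar per library. The CIP/KIP share (blue) is 83.0% at its highest in LNCaP95 and 68.4% at its lowest in LN95(KO), and the shares of CDKN3 (green) and CDKN2C (dark pink) are larger in LN95(KO).

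The kinases and cyclins that the inhibitors bind were described next. Of 13 genes, 12 were tested, 5 were called higher and 1 lower, beside 8.86% and 9.13% of all genes, and their median log2 fold change was 0.39. The targets of the INK4 proteins were not called, with log2 fold changes of 0.18 for CDK4 and 0.19 for CDK6. Among the cyclins that activate them, CCND2 fell, from 1042 and 1014 counts to 445 and 480 (log2 fold change -1.12, adjusted p = 3.27e-10, edgeR), whereas CCND1 (0.28) and CCND3 (-0.03, which turned positive under some settings) were not called. The partners of CIP/KIP proteins and CDKN3 moved further, with log2 fold changes of 1.59 for CDK2, 3.54 for CCNA2, 2.89 for CDK1, 2.23 for CCNB1 and 2.72 for CCNB2. The E-type cyclins were not called (CCNE1 -0.13, CCNE2 0.50). CCNA1 had 0 reads in every library, which allows up to 0.170 CPM.

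Ratios of inhibitor to kinase mRNA, per exon length, were formed after these counts had been seen and are given without a test. INK4 mRNA relative to CDK4 and CDK6 mRNA was 0.502 and 0.515 in LNCaP95, against 0.984 and 0.934 in LN95(KO). CDKN2C relative to CDK4 was 0.111 and 0.116 against 0.512 and 0.529. CIP/KIP mRNA relative to CDK2 and CDK1 went the other way, from 7.51 and 7.60 to 1.94 and 1.74. CDKN1A relative to CDK2 was 12.8 in both LNCaP95 libraries, against 6.38 and 5.84 in LN95(KO), although CDKN1A itself was higher there. CDKN3 relative to CDK1 was 1.03 and 0.992 against 0.536 and 0.589, and CDK1 had the higher fold change of the 2. Within the INK4 family, CDKN2C relative to CDKN2D was 0.318 and 0.320 against 1.32 and 1.58. The ratios used the merged exon length and were not formed with the longest transcript. Exons of the neighbouring gene TSPAN31 overlap 44.2% of the CDK4 exon bases, and exons of PMEL and ENSG00000258554 overlap 16.8% of those of CDK2. Reads there are ambiguous and left out by HTSeq where the other gene was also counted.

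**Figure D4:**
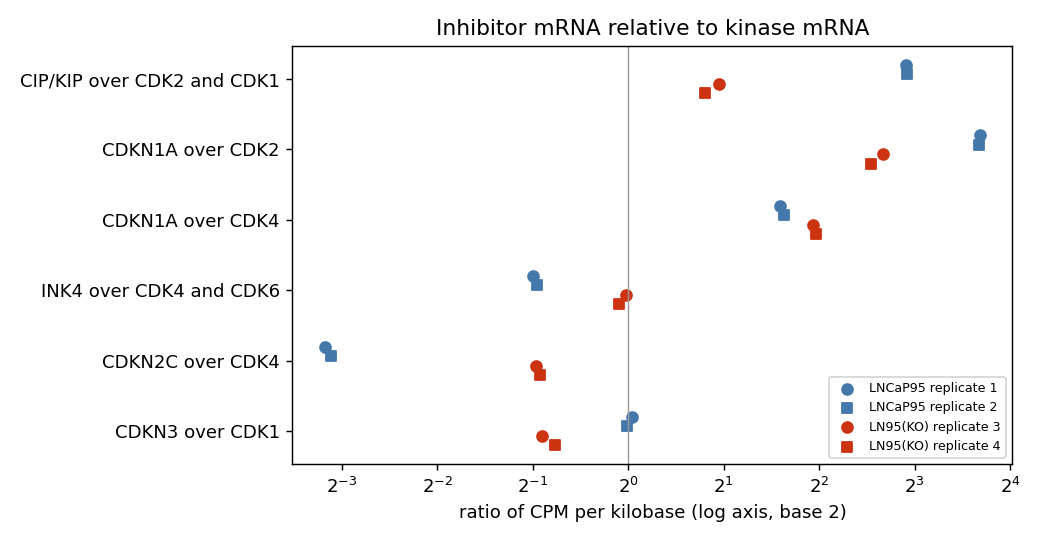
Ratio of inhibitor mRNA to kinase mRNA, each in CPM per kilobase, on a log axis of base 2, with 1 point per library (blue, LNCaP95; red, LN95(KO)). INK4 over CDK4 and CDK6 was at most 0.515 in LNCaP95 and at least 0.934 in LN95(KO), while CIP/KIP over CDK2 and CDK1 fell from at least 7.51 to at most 1.94.

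Factors that act on the turnover of inhibitor proteins followed. Of 19 genes tested, 4 were called higher and 0 lower, beside 8.86% and 9.13% of all genes, with a median log2 fold change of 0.25. The 4 were CKS1B (1.80), the adaptor through which SKP2 recognises CDKN1B, DTL (2.66) and PCNA (1.11), which together bring CDKN1A to its ubiquitin ligase in S phase, and CDC20 (2.75), an activator of the anaphase-promoting complex. SKP2, the ligase subunit for CDKN1B, had 485 and 493 counts against 724 and 832 and stayed below the fold criterion (log2 fold change 0.70). Without LN95(KO) replicate 4, PCNA (0.96) was no longer called and PIM1, a kinase that phosphorylates CDKN1A and CDKN1B, was (1.26). SKP2 and PIM1 were named after their values were seen.

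Among 10 other regulators of the same kinases, 5 were called higher, beside 8.86% of all genes, and 0 lower, with a median log2 fold change of 0.93. They were the activating phosphatases CDC25A (1.34), CDC25B (2.27) and CDC25C (3.21) and the inhibitory kinases WEE1 (1.38) and PKMYT1 (3.63). Activators and inhibitors of the kinases were thus both among the genes that rose. Of the 13 pocket proteins and E2F factors, through which the kinases control transcription, 4 were called higher, beside the same 8.86% of all genes, and 0 lower, with a median of 0.33. These were E2F1 (2.63), an activator, E2F2 (3.59), also an activator, and the repressors E2F7 (3.56) and E2F8 (3.26). RB1, named after its values were seen, had a log2 fold change of 0.13 and was not called.

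Of 29 factors known to regulate CDKN genes, 28 passed the filter, 2 of them were called higher and 1 lower, beside 8.86% and 9.13% of all genes, and their median was -0.01. FOXM1 (2.44) and MYBL2 (3.74), both activators of late cell cycle genes, were higher in LN95(KO). ETS1, an activator of CDKN2A, was lower, with 84 and 89 counts against 32 and 23 (log2 fold change -1.62, adjusted p = 8.42e-06, edgeR). The other 25 factors tested were not called, which does not mean that their levels were even. With no fold criterion, 20 of the 28 had an adjusted p under 0.05 (edgeR), beside 59.8% of all genes. The part of any of these factors in the level of CDKN2A was not tested.

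**Figure D5:**
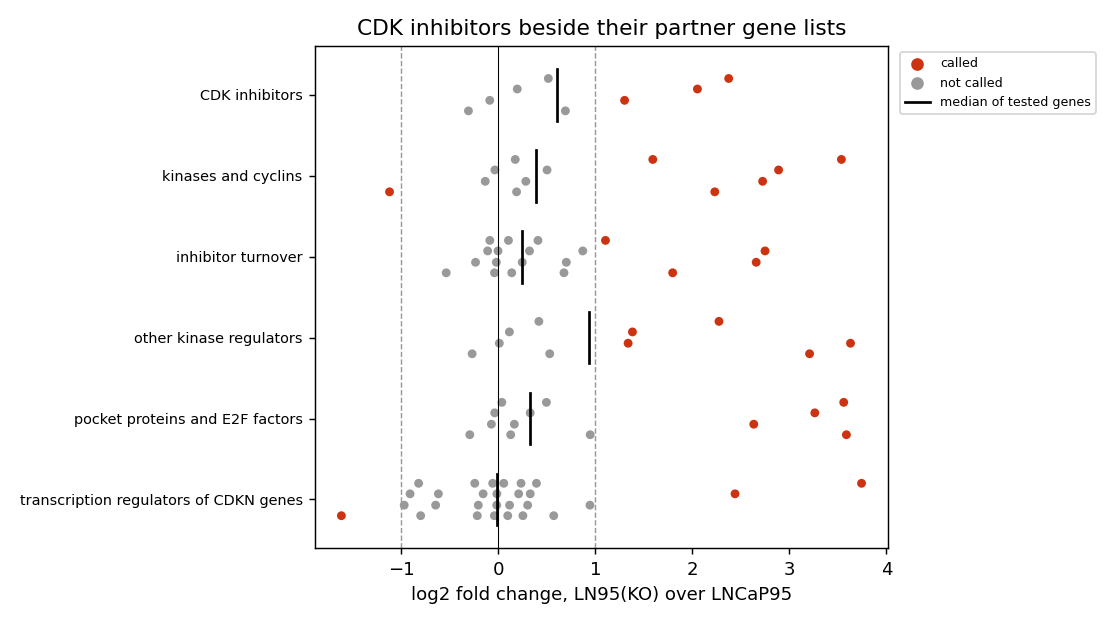
Log2 fold change, LN95(KO) over LNCaP95, of every tested gene of the inhibitors and of 5 partner lists (red, called; grey, not called), with the list median as a black line and dashed lines at a 2-fold change. Points are offset up and down only to separate them. The median is 0.60 for the inhibitors, 0.93 for other kinase regulators and -0.01 for the transcription regulators.

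Genes that lie beside the inhibitor genes were compared with them. On chromosome 9, MTAP, an enzyme of methionine salvage next to CDKN2A, had 323 and 305 counts against 484 and 472 (log2 fold change 0.64), close in size to CDKN2B (0.69) and below the fold criterion. DMRTA1 on the far side had at most 2 counts. Beside CDKN2C, FAF1 had a log2 fold change of 0.34, much smaller than the 2.37 of CDKN2C. Around CDKN1C, the potassium channel gene KCNQ1 was called lower, with 363 and 382 counts against 88 and 106 (log2 fold change -1.91, adjusted p = 3.80e-10, edgeR), PHLDA2 (0.83) and SLC22A18 (0.21) were higher without being called, and the imprinting RNA KCNQ1OT1 (-0.19) had overlapping groups. Of the 9 neighbours, 6 were tested, 0 were called higher and 1 lower, beside 18.0% of all genes called in either direction. PANDAR, beside CDKN1A, had 0 reads in every library, but 87% of its exon bases overlap LAP3P2, where reads are ambiguous and left out.

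For each called inhibitor, the 3 genes with the nearest profile over the 4 libraries were found by the distance between centred log2 CPM. Nearness means alike differences between groups and replicates on this scale, which is what 4 libraries can show. The log2 CPM had a prior count of 2, which shrinks the differences of genes with few counts. Such genes can lie near with a larger fold change. CDKN2C lay nearest to SHC4 (distance 0.027), ENSG00000280852 (0.046) and STIL (0.065), a centriole gene with 262 and 250 counts in LNCaP95, against 1203 and 1361 in LN95(KO). SHC4 had 8 and 8 counts against 45 and 53. ENSG00000280852 had 1 and 1 against 12 and 15, with a log2 fold change of 3.63 beside the 2.37 of CDKN2C. CDKN3 lay nearest to TRIP13 (0.045), a regulator of the spindle checkpoint, to the replication gene MCM4 (0.090) and to ENSG00000256673 (0.123). The last had 10 and 9 counts against 40 and 57. CDKN2A lay nearest to HOMER1 (0.045), a synaptic scaffold gene with 359 and 302 counts against 813 and 776. ENSG00000261469 and OCLM came next, had the same counts and tied at 0.064. Both had 4 and 3 counts against 11 and 11, with a log2 fold change of 1.65.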

How the data were processed

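RNA-Seq was performed on 2 LNCaP95 and 2 LN95(KO) libraries of oligo(dT)-selected RNA, sequenced on DNBseq. Reads were aligned by the authors to hg19 using HISAT2 (2.1.0), counted with HTSeq on GENCODE 29 without strand, and deposited as raw counts per gene. Reads on 2 genes are dropped, and unstranded counting cannot separate antisense genes. Groups came from the labels. The 5 summary lines per library were left out, the unaligned ones holding 3.85% to 8.05% of entries.

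Counts were fitted with edgeR 4.0.16, quasi-likelihood test (R 4.3.3; TMM factors, robust fit, filterByExpr with minimum count 10 and total 15), adjusted by Benjamini-Hochberg over 15626 genes. A call needed an adjusted p under 0.05 and a fold over 2. SE is the log2 fold change over the root of F, and 95% intervals use the same SE. The biological coefficient of variation was 4.27%. A count of 0 allows 3 counts. This floor covers counting error only. Alternatives were DESeq2 1.42.0, other scalings, filters and fold criteria, and leaving out each library. Exon lengths came from GENCODE 44 on GRCh37 and symbols matched 59899 identifiers.

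The members and gene lists were chosen with earlier results of these data known. Named genes were the inhibitors, UGT2B17, all kinases and cyclins, all neighbours, up to 6 called genes with the smallest adjusted p of each other list, and the 3 nearest profiles of each called inhibitor. Authors' comparisons were not used.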

Additional observations from a re-analysis of the deposited data

Results flagged for a closer look

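Unaligned reads, which no comparison used, took a share that was higher in LN95(KO), at 8.05% and 7.71%, than in LNCaP95, at 3.85% and 3.96%, and it was listed because the lowest LN95(KO) value lay above both control libraries. Its part in the levels of the inhibitor genes was not tested.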

How the results depend on the processing

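All 8 inhibitor genes kept their direction and their side of the call under the 9 alternatives run for each (72 values in all), and 3 were called under each scaling, without the filter, with DESeq2 and without each library. The fold criterion moved counts: 2 inhibitor genes and 1687 genes in all were called against a 2-fold change with glmTreat, and 5 and 9349 with no fold criterion. Among the other genes named, 328 of 333 values of the listed partner genes, neighbours and UGT2B17 kept direction and call, as did 70 of 80 of the nearest profile genes. The other 10 were OCLM and ENSG00000261469, which had at most 11 counts and lost their calls with DESeq2 and without each library. CCND3 turned to 0.021 with library totals and ranged from -0.17 to 0.092 without single libraries (positive without LN95(KO) replicate 3), and KCNQ1OT1 ranged from -0.49 to 0.083 (positive without LNCaP95 replicate 2 or LN95(KO) replicate 3). PCNA fell below the fold criterion (0.957) without LN95(KO) replicate 4. Called transcription regulators numbered 3 to 5 when single libraries were left out, with 5 without LN95(KO) replicate 4. With library totals the log2 ratio of summed levels was 0.33 for CIP/KIP and 1.43 for INK4. With the longest transcript, levels in LNCaP95 and LN95(KO) were 66.7 and 95.4 CPM per kilobase for CDKN1A, 27.2 and 25.6 for CDKN1B, 3.08 and 2.49 for CDKN1C, 2.38 and 5.87 for CDKN2A, 6.20 and 7.11 for CDKN2D and 8.18 and 33.9 for CDKN3, and 0.388 for CDKN2B and 1.95 for CDKN2C in LNCaP95. The median of all genes moved by less than 0.1 on the log2 scale under every scaling. Except where a shorter length or fewer libraries sets the value, the cause was not tested. No paired analysis was possible because LNCaP95 carries numbers 1 and 2 and LN95(KO) 3 and 4. Depth limits CDKN2A, CDKN2B and CDKN1C most, which had at most 114, 45 and 112 counts in any library. In LNCaP95 it also limits CDKN2C, which had 104 counts in each library there.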
